A study of Mus musculus with 16 samples.

Results

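The genes described here are 9 of those that encode enzymes of the citric acid cycle: Cs, Idh2, Idh3a, Idh3b, Ogdh, Dlst, Suclg1, Fh1 and Mdh2. They were taken by name, as every probe whose gene name on the array was one of the 9, which gave 13 of 41174 probes. Of the 13 probes, 12 passed the filter on dim probes, and all 9 genes were among the 12330 genes tested. The third Dlst probe, well above background on 3 of 16 arrays, did not pass.

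RNA of hearts from mice aged 12 weeks was compared on 16 Agilent arrays, 1 heart per array and 4 per genotype. The genotypes were wild type (MuRF1 +/+ MuRF2 +/+), double null (MuRF1 -/- MuRF2 -/-) and the mice with 1 functional allele left, MuRF1 null MuRF2 het (MuRF1 -/- MuRF2 +/-) or else MuRF1 het MuRF2 null (MuRF1 +/- MuRF2 -/-). Trim63 encodes MuRF1, a ubiquitin ligase of muscle, and Trim55 its relative MuRF2. Every array also carried, in the other colour, a common reference, RNA of pooled C57BL/6 neonates (whole pups, day 1). The series' design text calls the groups strain matched; sex and the kind of null allele were not given in the sources used here. Values below are log2 ratios of heart to reference, so that 1 unit is a doubling against the reference. A gene is said to have fallen or risen where limma's adjusted p (Benjamini-Hochberg over all genes tested) was under 0.05.

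The citric acid cycle runs in the mitochondrial matrix, where it oxidises the acetyl groups that come from fatty acids, pyruvate and ketone bodies and passes the electrons to the respiratory chain. Heart muscle is rich in mitochondria and depends on this oxidation for most of its ATP. The cycle starts with citrate synthase, goes on through 2 oxidative decarboxylations (isocitrate dehydrogenase and the 2-oxoglutarate dehydrogenase complex) and returns by way of succinyl-CoA ligase, succinate dehydrogenase, fumarase and malate dehydrogenase to oxaloacetate.

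In double null hearts 8 of the 9 genes fell against wild type (12% of all genes fell) and none rose (10.3% of all genes rose). In each of the groups that kept 1 functional allele of MuRF1 or MuRF2 none of the 9 passed against wild type, where 1.03% of all genes did for MuRF1 null MuRF2 het hearts, and 1.95% for those of MuRF1 het MuRF2 null mice. The probes of the 9 genes are 60 bases long. Values given for Ogdh are those of its second probe unless the first is named. Probes of Cs, Idh3a and Mdh2 had no reading frame free of stop codons over their whole length. Those of Dlst, which had such a frame, are not shown. Shown are 6 probes of 5 genes, each with a reading frame free of stop codons over its whole length, as 78.3% of all the array's 60-base probes have.
Ogdh, first probe: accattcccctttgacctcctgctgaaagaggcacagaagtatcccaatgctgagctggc
Ogdh, second probe: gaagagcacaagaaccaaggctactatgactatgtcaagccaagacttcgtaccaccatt
Idh2: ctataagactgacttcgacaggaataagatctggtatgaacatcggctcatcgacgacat
Idh3b: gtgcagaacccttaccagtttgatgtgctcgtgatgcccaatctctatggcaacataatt
Suclg1: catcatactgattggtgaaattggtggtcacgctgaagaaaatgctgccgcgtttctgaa
Fh1: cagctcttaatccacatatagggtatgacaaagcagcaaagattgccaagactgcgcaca
The array files place the Ogdh probes on the plus strand at chr11:6307299-6307358 and chr11:6307369-6307428, 10 bases apart, so both read one stretch of the same transcript. The 60 bases of the Fh1 probe are spread over 2431 bases of chromosome 1, so this probe crosses a gap in the genome and reads spliced RNA. Their build was not given in the sources used here.

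Trim63 ranged from 2.51 to 2.71 in wild type, from 1.70 to 2.13 in MuRF1 het MuRF2 null, from -0.85 to -0.34 in MuRF1 null MuRF2 het and from -1.04 to -0.39 in double null hearts, in the order of the labelled MuRF1 alleles. The probe of Trim55 did not follow the labelled MuRF2 alleles (-1.90 to -1.57 in wild type and -1.66 to -0.52 in double null hearts), and the removed part of the gene was not stated, so this probe checks nothing. The heart muscle myosin Myh6 was at 3.97 in wild type hearts. Heart signal was well above background for 15171 to 16663 probes in wild type and 16127 to 17390 in MuRF1 het MuRF2 null arrays, but for 6033 to 14500 in double null and 6400 to 15064 in MuRF1 null MuRF2 het arrays. The dimmest were double null 2 and MuRF1 null MuRF2 het 1. Wild type and double null arrays shared slides 1 and 3, with 2 of each on either slide, per the headers. All MuRF1 null MuRF2 het arrays were on slide 2, and slide 4 took all those of MuRF1 het MuRF2 null hearts, so in the last 2 groups genotype and slide cannot be told apart.

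Cs encodes citrate synthase, which joins acetyl-CoA to oxaloacetate at the entry of the cycle. In the 4 wild type hearts its log2 ratio was 0.80, 1.01, 1.21 and 1.04, and in the 4 double null hearts -0.16, 0.88, 0.33 and 0.20. Double null 2, on the dimmest array of its group, lay inside the wild type range and the others below it. Cs fell by 0.71 ± 0.16 (SE; log2; 1.63-fold, limma adjusted p = 0.00689) in double null hearts. Against MuRF1 het MuRF2 null hearts (0.94, 1.07, 0.96 and 0.98) it also fell, by 0.67 (adjusted p = 0.00682), with no overlap. A second Cs probe separated the groups fully: it read 0.68 to 0.83 in wild type and -0.05 to 0.07 in double null hearts, a fall of 0.74 ± 0.09 (limma adjusted p over probes = 0.000184). On that second probe MuRF1 null MuRF2 het hearts lay between those groups, at 0.09, 0.47, 0.55 and 0.44, all below wild type (adjusted p over probes = 0.0607). The first probe put the same hearts at 0.76, 0.77, 1.06 and 0.79, overlapping wild type.

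Isocitrate dehydrogenase takes citrate's isomer to 2-oxoglutarate. Idh2 encodes the mitochondrial NADP-dependent enzyme, and Idh3a and Idh3b encode the catalytic alpha and the beta subunit of the NAD-dependent enzyme of the cycle itself. Idh2 stood at 2.97, 3.06, 2.70 and 2.81 in wild type and at 2.33, 1.70, 2.22 and 2.17 in double null hearts. No double null heart reached the lowest wild type heart, and Idh2 fell by 0.78 ± 0.18 (1.72-fold, adjusted p = 0.00778). In MuRF1 null MuRF2 het hearts it ranged from 2.02 to 2.90 and from 2.32 to 2.84 in MuRF1 het MuRF2 null hearts, both overlapping wild type.

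Idh3b was the tightest of the 9 in wild type hearts, at 2.07, 2.02, 2.09 and 2.06 (SD 0.03, n = 4). Double null hearts read 1.82, 1.32, 1.59 and 1.73, all below wild type, a fall of 0.45 ± 0.11 (1.36-fold, adjusted p = 0.0125). Idh3a had the smallest difference of the 9. Its wild type values of 0.38, 0.58, 0.55 and 0.50 all lay above the double null values of 0.29, 0.25, -0.02 and 0.08, yet the difference of -0.35 ± 0.16 did not pass (adjusted p = 0.114; 95% interval -0.69 to -0.02). Idh3a spread most in MuRF1 null MuRF2 het hearts, with 0.14 and 0.17 in the first 2 and 1.04 and 0.68 in the others, and without MuRF1 null MuRF2 het 3 in the fit its double null difference passed (adjusted p = 0.0481).

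The 2-oxoglutarate dehydrogenase complex makes succinyl-CoA. Ogdh encodes its thiamine-dependent first component and Dlst its succinyltransferase core. Ogdh had the largest difference of the 9 and also the largest spread. It read 2.47, 2.70, 2.67 and 2.55 in wild type and 1.12, 0.61, 2.02 and 1.81 in double null hearts. All double null hearts lay below wild type, with the 2 of slide 1 lower than the 2 of slide 3. On double null 2 the log2 heart signal of Ogdh, though well above background, was 6.29, against 9.48 to 10.02 in wild type. The third Dlst probe, which did not pass the filter, read 5.83 on that array, so this Ogdh ratio was near the floor. On MuRF1 null MuRF2 het 1 the signals were 6.36 and 5.89. Ogdh fell by 1.21 ± 0.34 (2.32-fold, adjusted p = 0.0213). The call was lost without wild type 2, wild type 3, double null 1 or double null 2 (adjusted p = 0.0544, 0.0547, 0.0525 and 0.0565), and the difference was -0.95 without double null 2. With the number of probes above background as a covariate it was -0.30 (adjusted p = 0.322).

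The first Ogdh probe, 10 bases away, gave the same picture, with 2.20 to 2.55 in wild type and 1.01, 0.37, 1.83 and 1.62 in double null hearts (difference -1.20 ± 0.32, adjusted p over probes = 0.0182). In MuRF1 null MuRF2 het hearts the second probe read 0.72, 2.41, 2.02 and 2.60, so that 1 heart, on the dimmest array of its group, lay between the 2 lowest double null hearts and another within the wild type range. MuRF1 het MuRF2 null hearts read 2.21, 2.50, 2.52 and 1.99. Neither group passed against wild type for Ogdh (adjusted p = 0.248 and 0.75).

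Dlst had the smallest adjusted p of the 9 genes in double null against wild type hearts. Its wild type values were 0.81, 0.81, 1.16 and 1.03 and its double null values 0.15, 0.08, 0.38 and 0.28, with a wide gap between the groups. Dlst fell by 0.73 ± 0.12 (1.66-fold, adjusted p = 0.00111). It read 1.16, 1.10, 1.02 and 1.23 in MuRF1 het MuRF2 null hearts, from which the double null hearts differed by -0.90 ± 0.12 (1.87-fold, adjusted p = 0.000215). The 2 Dlst probes disagreed for MuRF1 het MuRF2 null hearts: the second read 0.51, 0.94, 0.81 and 0.28 there against 0.91 to 1.23 in wild type, so its difference from wild type was -0.45 where that of the first was 0.17. Neither difference passed. The second probe also differed less between double null and MuRF1 het MuRF2 null hearts, by -0.46 ± 0.19, which did not pass (adjusted p over probes = 0.0817). For double null against wild type the second probe gave -0.90 ± 0.19 (limma adjusted p over probes = 0.00431), below wild type in 4 of 4 hearts. The lowest of these 4, double null 2 at -0.09, had a signal on this probe that was not well above background.

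Suclg1 encodes the alpha subunit of succinyl-CoA ligase, the step that forms a nucleoside triphosphate within the cycle. It stood at 0.85, 0.99, 0.78 and 0.94 in wild type and at 0.45, 0.28, 0.35 and 0.32 in double null hearts. The double null hearts were close together and all below wild type. Suclg1 fell by 0.54 ± 0.11 (1.45-fold, adjusted p = 0.00324). It was also the only one of the 9 to fall in double null against MuRF1 null MuRF2 het hearts (0.88, 0.56, 1.10 and 1.01), by 0.54 ± 0.11 (adjusted p = 0.0413). MuRF1 het MuRF2 null hearts read 0.66, 0.57, 0.48 and 0.81, all above double null hearts and 1 of them inside the wild type range, without passing against either (adjusted p = 0.245 and 0.0605).

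Fh1 encodes fumarase, which hydrates fumarate to malate. Wild type hearts read 1.78, 1.89, 1.85 and 1.91 and double null hearts 1.75, 1.56, 1.21 and 1.39. Double null 1 lay just under the lowest wild type heart, and the 2 double null hearts of slide 3 were the lowest of all. Fh1 fell by 0.38 ± 0.10 (1.30-fold, adjusted p = 0.0127). MuRF1 het MuRF2 null hearts formed a narrow band at 1.58, 1.65, 1.60 and 1.59, all below wild type, with a difference of -0.25 ± 0.10 that did not pass (adjusted p = 0.194; 95% interval -0.45 to -0.05). MuRF1 null MuRF2 het hearts, at 1.88, 1.70, 1.88 and 1.81, overlapped wild type.

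Mdh2 encodes the mitochondrial malate dehydrogenase, which regenerates oxaloacetate. It read 2.15, 2.32, 2.14 and 2.10 in wild type hearts and 1.36, 1.52 and 1.36 in double null 1, 3 and 4. The spot of double null 2 was marked irregular in the reference channel and left out of the fit, so n = 3 there. Mdh2 fell by 0.76 ± 0.13 (1.69-fold, adjusted p = 0.00162). With that spot kept, double null 2 read 2.28, inside the wild type range, and the fall was 0.55 ± 0.18 (adjusted p = 0.039), an alternative chosen after seeing the data. MuRF1 null MuRF2 het hearts read 2.27 (on the dimmest array of that group), 1.66, 1.95 and 1.66. MuRF1 het MuRF2 null hearts read 1.93, 1.93, 1.72 and 2.03. All of the latter lay below wild type, with a difference of -0.27 ± 0.12 that did not pass (adjusted p = 0.28).

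**Figure D1:**
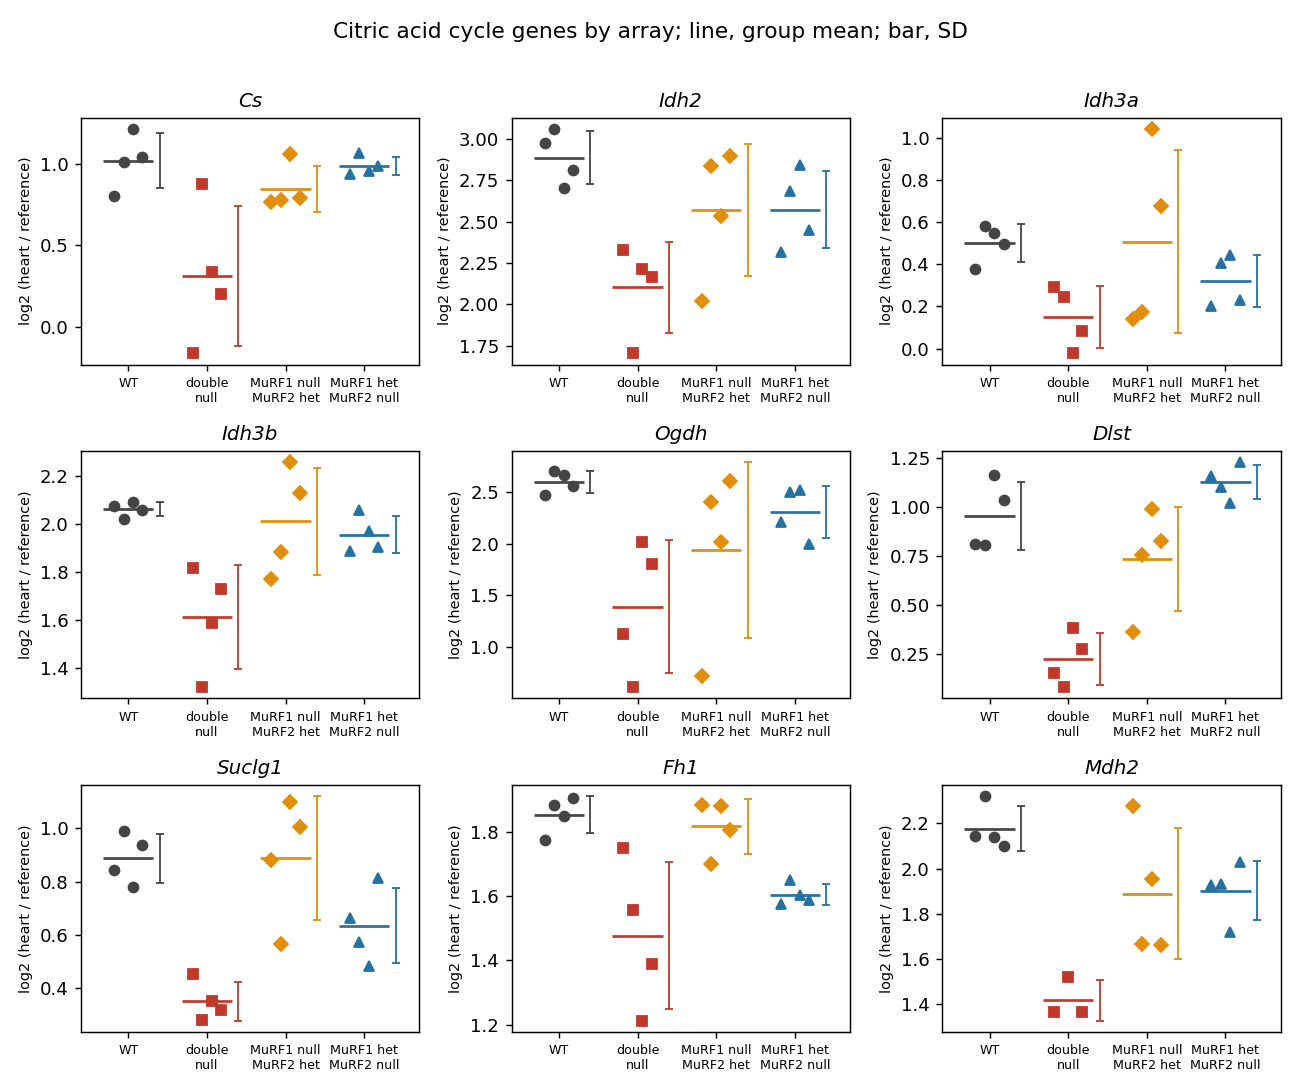
Log2 ratio of heart to reference RNA for the 9 citric acid cycle genes, 1 panel per gene with its own axis. Each point is 1 heart, the horizontal line is the group mean and the bar beside it 1 SD (n = 4, but 3 for Mdh2 in double null hearts). The double null hearts shown are below all wild type hearts in every panel but that of Cs, where double null 2 is at 0.88. Double null 2 is not shown for Mdh2: its irregular spot, if kept, would read 2.28, inside the wild type range.

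Over the whole group, 8 of 9 genes fell in double null against wild type hearts, where 12% of all genes tested fell and 22.3% changed in either direction. For 8 of the 9 every double null heart with a value (Mdh2 without double null 2) lay below every wild type heart, as was so for 12.9% of all genes. All 9 had an unadjusted p under 0.05, beside 38.6% of all genes. The median difference of the 9 was -0.71, with a range of -1.21 to -0.35, beside 0.01 over all genes. Heart by heart, the median of the 9 genes (8 in double null 2, without Mdh2) against their wild type means was -0.56, -0.67, -0.58 and -0.68 in double null 1 to 4. It was -0.29, -0.20, 0.03 and 0.00 in MuRF1 null MuRF2 het 1 to 4 and between -0.25 and -0.08 in the 4 MuRF1 het MuRF2 null hearts. No double null array was as bright as a wild type array, and with array brightness as a covariate the median over the 9 genes was -0.48 and 5 of 9 passed (14.8% of all genes). In bulk RNA of a whole heart, fewer cells of a type and less RNA per cell cannot be told apart.

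**Figure D2:**
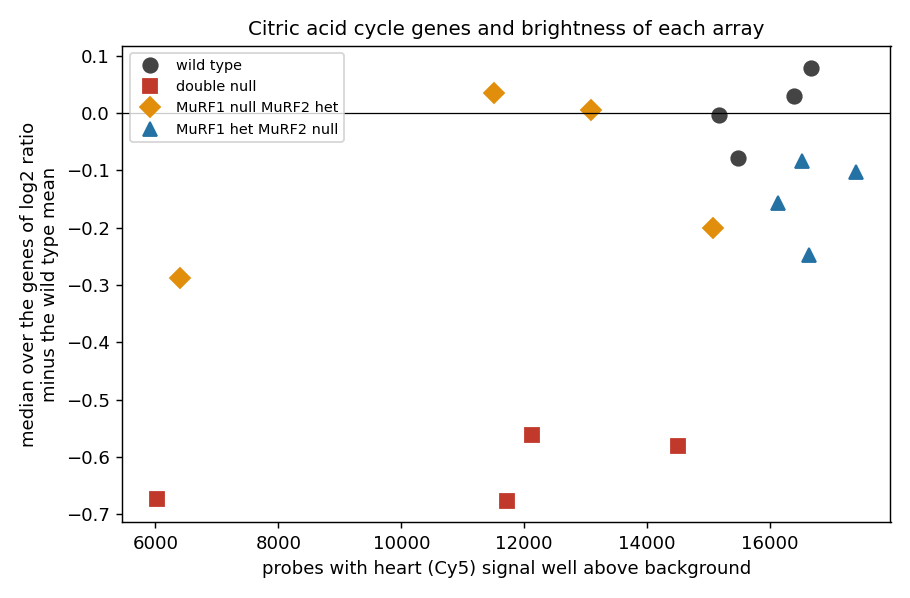
Median over the 9 genes of the log2 ratio minus the wild type mean (vertical axis) against the number of probes with heart signal well above background (horizontal axis), 1 point per array. For double null 2 the median is over 8 genes, without Mdh2. The 4 double null arrays lie between -0.68 and -0.56, at 6033 to 14500 probes, which is fewer than on any wild type array, and MuRF1 null MuRF2 het 1, nearly as dim as double null 2, is at -0.29.

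Slides 1 and 3 each held both genotypes and gave the comparison separately. The 9 differences were all below zero on both slides. On slide 1 they went from -1.72 (Ogdh) to -0.18 (Fh1) and on slide 3 from -0.86 (Cs) to -0.42 (Idh3b). Fitted within slide 3 all 9 passed, beside 19.1% of all genes. Within slide 1 none of the 9 passed by limma (adjusted p = 0.107 to 0.553), nor did any of 12329 genes, so that count says nothing about the 9. Each of these fits had 4 arrays, but 3 for Mdh2 on slide 1, where double null 2 was left out. The slide 1 difference of Mdh2 (-0.87) rests on double null 1 alone. With slide as a block over both slides 9 of 9 passed (19.3% of all genes). With arrays scaled to one spread, Fh1 was at -0.17 (adjusted p = 0.487), Idh3b at -0.25 (adjusted p = 0.125) and Mdh2 at -0.66 (adjusted p = 0.05). With array brightness as a covariate, besides Ogdh, Idh2 was at -0.37 (adjusted p = 0.0908) and Idh3b at -0.29 (adjusted p = 0.121). With only these groups fitted, Fh1 lost its call (adjusted p = 0.0547) and Idh3a gained one (adjusted p = 0.0392). The difference between slides passed for none of the 9 by limma's interaction term, nor for any of the 12330 genes. Of the 9 genes, 1 had an unadjusted p under 0.05 for that term, Ogdh, at 1.03 ± 0.26 (limma adjusted p = 0.659), beside 6.73% of all genes.

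Against wild type, 0 of 9 genes passed in MuRF1 null MuRF2 het hearts by limma, where 1.03% of all genes did (0.714% fell and 0.316% rose). With median centring in place of loess 9 of 9 passed, but so did 59.8% of all genes, whose median was then at -0.51. At an unadjusted p under 0.05 there was 1 of 9, Mdh2 (23.1% of all genes). The 9 differences had a median of -0.17 and went from -0.66 for Ogdh to 0.01 for Idh3a, and 7 of 9 were below zero. On the probes that stand for the 9 genes the groups separated for none (6.25% of all genes lay wholly below wild type and 6.43% wholly above). Their 95% intervals still reach well below zero for several genes, for example -0.70 to 0.07 for Idh2, and are narrower for Suclg1, at -0.23 to 0.23. In MuRF1 het MuRF2 null hearts 0 of 9 passed as well, with 1.95% of all genes passing (1.28% fell and 0.673% rose). There, 3 of 9 (Suclg1, Fh1 and Mdh2) had an unadjusted p under 0.05, beside 16.2% of all genes. The median was -0.25, from -0.31 for Idh2 to 0.17 for Dlst, with 8 of 9 below zero. Fh1 and Mdh2 lay wholly below wild type, as 11.4% of all genes did, and none of the 9 wholly above (9.38% of all genes).

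The double null hearts were also set against each of the groups with 1 functional allele. Against MuRF1 null MuRF2 het hearts all 9 differences were below zero, from -0.55 to -0.34, and 1 passed (Suclg1), where 0.187% of all genes fell and 0.349% changed in either direction. Suclg1 and Mdh2 (without double null 2) lay wholly below that group (1.51% of all genes) and none wholly above (1.38%). By limma 8 of 9 had an unadjusted p under 0.05 (9.71% of all genes). Without MuRF1 null MuRF2 het 1, 4 of 9 passed (2.92% of all genes). The count was 2 without double null 1 (0.925%) or double null 2 (1.59%). It was 0 when any 1 of 11 other arrays was left out (0.0243% to 0.316%). These were wild type 1, 2, 3 or 4, double null 3 or 4, MuRF1 null MuRF2 het 3 or 4, and MuRF1 het MuRF2 null 1, 2 or 4. Without both of the dimmest arrays, 5 of 9 passed (3.9% of all genes). Against MuRF1 het MuRF2 null hearts all 9 were below zero, from -0.92 (Ogdh) to -0.13 (Fh1), and 4 fell (Dlst, Cs, Mdh2 and Idh3b), where 12.7% of all genes fell and 26.3% changed in either direction. These 4 (Mdh2 without double null 2) and Suclg1 lay wholly below that group (13.1% of all genes). By limma 7 of 9 had an unadjusted p under 0.05 (40% of all genes).

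The Idh3b difference in that last comparison was -0.34 ± 0.11 (adjusted p = 0.037). It lost its call without both dimmest arrays, double null 2, double null 3 or any 1 of the 4 MuRF1 het MuRF2 null arrays (adjusted p up to 0.105). It was at -0.16 (adjusted p = 0.408) with array brightness as a covariate and at -0.21 (adjusted p = 0.18) with arrays scaled to one spread. The call was also lost with median centring, the Feature Extraction ratio, the series matrix, no filter or only these groups fitted (limma adjusted p = 0.0519 to 0.209). Mdh2 lost its call there without double null 4 (adjusted p = 0.0501), with arrays scaled (-0.46, adjusted p = 0.137), with median centring (adjusted p = 0.381) and with the irregular spot kept (-0.27, adjusted p = 0.267). Between the groups with 1 functional allele 0 of 9 passed by limma (8.54% of all genes, 4.56% higher and 3.98% lower in MuRF1 null MuRF2 het hearts), and 3 of 9 had an unadjusted p under 0.05 (28.3% of all genes). The largest of these differences was in Dlst, lower in MuRF1 null MuRF2 het hearts by 0.39 on the log2 scale in the first probe (-0.39 ± 0.12, adjusted p = 0.0566), while its second probe was at 0.07. On the first probe Dlst lay wholly below the other group (8.22% of all genes), and Fh1 wholly above it (11.8%). Comparisons that share a group share its 4 arrays and are not independent of each other.

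**Figure D3:**
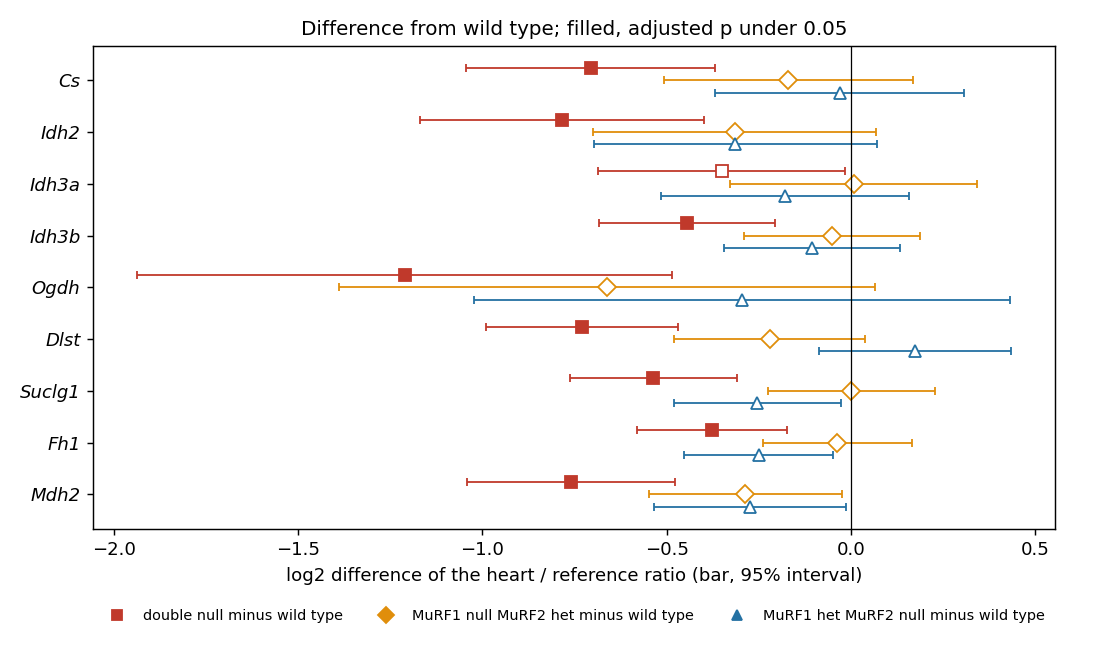
Log2 difference from wild type for the 9 genes in the 3 other genotypes, with 95% intervals from limma; filled symbols passed at an adjusted p under 0.05. Only double null hearts have filled symbols, for 8 of 9 genes, and Ogdh has the widest intervals.

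Over the 16 arrays the 36 pairs of the 9 genes had Pearson correlations from 0.16 (Ogdh and Fh1) to 0.88 (Idh2 and Ogdh), with a median of 0.55. The arrays share the genotype difference and the normalisation, so these values only describe how evenly the genes moved. The non-member genes whose values over the 16 arrays were most like the mean of the 9 were Got1 (r = 0.96), Pank1 (0.94), Crat (0.94), Ndufa10 (0.94) and Slc25a3 (0.94). Got1 encodes the cytosolic aspartate aminotransferase, Pank1 a pantothenate kinase of coenzyme A synthesis, Crat carnitine acetyltransferase, Ndufa10 a subunit of respiratory complex I and Slc25a3 the mitochondrial phosphate carrier.

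In double null hearts 6 of 9 other genes of the cycle fell against wild type (12% of all genes) and none rose (10.3% of all genes). Their median was -0.59, with a range of -1.46 to -0.11. Sdha and Sdhb, the flavoprotein and iron-sulphur subunits of succinate dehydrogenase, fell by 1.46 ± 0.28 (2.76-fold, adjusted p = 0.00287) and 0.84 ± 0.12 (adjusted p = 0.000441), while the membrane subunits Sdhc and Sdhd were at -0.14 and -0.11 without passing. Sucla2, the ATP-forming beta subunit that pairs with the Suclg1 product, fell by 0.98 ± 0.13 (adjusted p = 0.000233).

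Neighbouring pathways were read from lists of their own. Beside their counts in double null hearts, 12% of all genes fell and 10.3% rose. Of 8 measured genes of the pyruvate dehydrogenase complex and its regulators (Pdk3 and Pdp2 were not tested) 5 fell and none rose in double null hearts, with a median of -0.44. They included Dlat, the acetyltransferase core (-1.02), Pdk2, a kinase of the complex (-0.85), Pdhx (-0.39) and Pdhb (-0.50). Of 19 fatty acid oxidation enzymes 10 fell and none rose (median -0.42), the smallest p values being those of Cpt2 (-0.92), Acadvl (-0.87), Etfdh (-0.71) and Hadh (-0.80). Of 14 complex I subunits 4 fell (among them Ndufa10, Ndufs1 and Ndufa9; median -0.22), and of 12 anaplerotic genes and cytosolic counterparts 4 fell (Got1, Nnt, Got2 and Aco1; median -0.21). None rose in either. The cytosolic isocitrate and malate dehydrogenases Idh1 and Mdh1 were at 0.11 and -0.30 without passing (adjusted p = 0.406 and 0.0523).

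In MuRF1 null MuRF2 het hearts no gene of these 5 lists passed against wild type by limma, where 1.03% of all genes did. The list medians lay between -0.18 and 0.03. In MuRF1 het MuRF2 null hearts 5 passed by limma, all lower, where 1.28% of all genes fell. By list they were 1 of 9 other genes of the cycle, 1 of 12 anaplerotic genes and cytosolic counterparts and 1 of 8 pyruvate dehydrogenase genes. The rest were 2 of 19 fatty acid oxidation enzymes, with 0 of 14 complex I subunits. The 5 genes were Sdhb (-0.73 ± 0.12, adjusted p = 0.00616), Mdh1 (-0.53, adjusted p = 0.0187), Pdk4, a pyruvate dehydrogenase kinase (-1.65, 3.15-fold, adjusted p = 0.0051), Etfdh (-0.58, adjusted p = 0.0133) and Acadl (-0.61, adjusted p = 0.0383). Pdk4 was at 0.20 in double null hearts (adjusted p = 0.581).

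**Figure D4:**
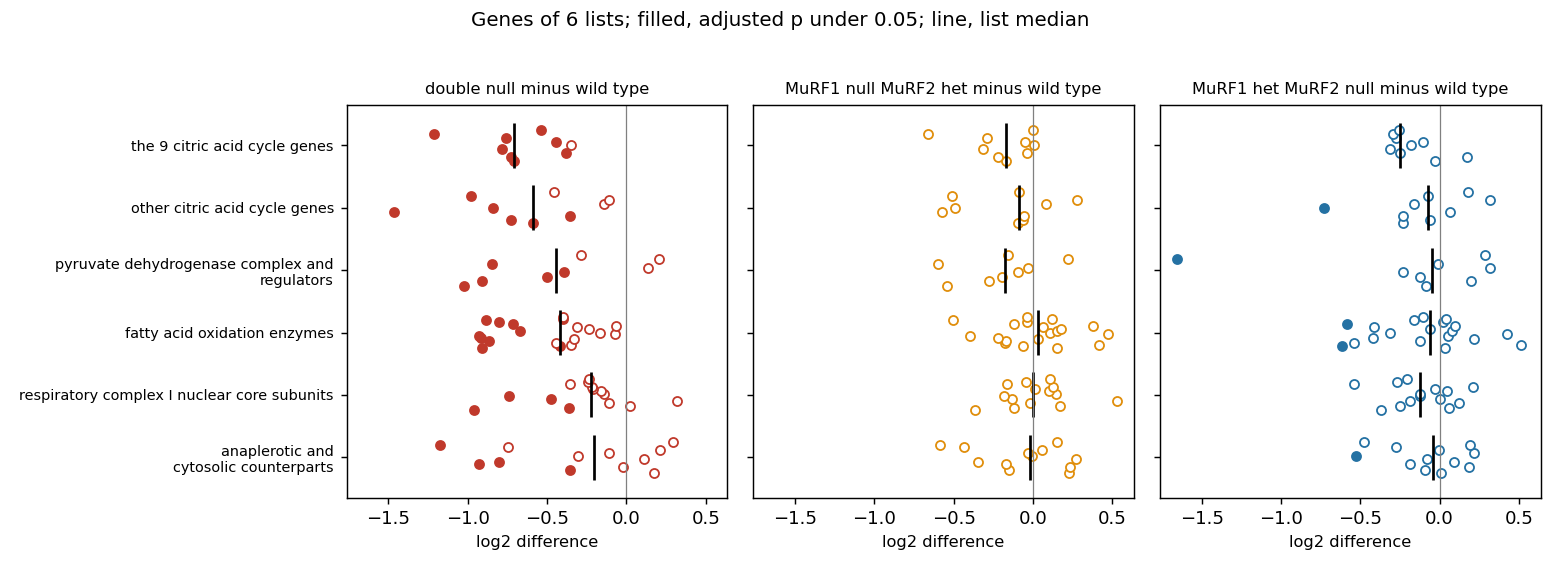
Log2 difference from wild type for each gene of 6 lists (points; filled where the adjusted p was under 0.05) with the list median (vertical line), in double null hearts and in either group with 1 functional allele. In double null hearts the 9 citric acid cycle genes have the lowest median, -0.71, and the anaplerotic list the highest, -0.21.

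Some markers of cell types moved with genotype as well. Beside the marker counts in double null hearts, 12% of all genes fell and 10.3% rose. In double null hearts 7 of 8 endothelial markers fell (median -0.67; Flt1 -1.17 and Eng -0.65), and the mean of the list against wild type was -0.81 to -0.54 over the 4 hearts. Where none of the 9 cycle genes passed, in MuRF1 null MuRF2 het hearts, 1 of 8 endothelial markers fell, Flt1 (0.714% of all genes fell). All 8 were below zero (median -0.44), and the list means were -0.77 to -0.14. They were -0.19 to 0.15 in MuRF1 het MuRF2 null hearts. Some other list means moved in MuRF1 null MuRF2 het hearts: atrial (0.24 to 1.27), adipocyte (0.21 to 1.68) and fibroblast (0.03 to 1.01), without a marker passing. In MuRF1 het MuRF2 null hearts atrial (0.30 to 0.53), fibroblast (0.21 to 0.41) and leukocyte means (-0.40 to -0.23) did. There 1 of 5 measured leukocyte markers fell, Adgre1 (1.28% of all genes fell). In double null hearts 2 of 8 cardiomyocyte markers fell, Myh6 (-1.52) and Ryr2 (-0.41), and 0 rose. Of the 8, 6 were below zero (median -0.30, highest 0.51, list means -0.61 to -0.27). Of 8 fibroblast markers 3 rose (Tcf21, Lum and Postn; list means 0.13 to 1.47), and of 4 atrial markers 3 rose, Nppa by 2.90 and Myl4 and Myl7 with it (list means 0.79 to 2.59).

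Of 6 smooth muscle and pericyte markers 2 rose and 2 fell in double null hearts (list means -0.13 to 0.26), where 22.3% of all genes changed. Of 5 measured leukocyte markers 1 rose, Ptprc, while 3 were below zero (median -0.15, list means -0.11 to 0.05). Of 4 measured skeletal muscle markers 1 fell, Myh4 (-1.90), the only 1 below zero (median 0.56, list means -0.37 to 0.87). None of 3 erythroid or 4 adipocyte markers passed (list means 0.17 to 0.67 and -0.02 to 1.66). The part of these shifts in the fall of the citric acid cycle genes was not tested.

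The starts of the genes were read from RefSeq promoter windows of GRCm38.p6, each from 250 bases before to 50 after a start, which matched 8 of the 9 genes in 13 windows (6 of them for Ogdh). Idh3a had none. Shown are the 250 bases before the start of Ogdh (first of its starts, plus strand, chr11:6291347-6291596) and of Mdh2 (plus strand, chr5:135778399-135778648), the genes whose windows hold the cAMP response element TGACGTCA; capitals mark the searched motifs.
Ogdh: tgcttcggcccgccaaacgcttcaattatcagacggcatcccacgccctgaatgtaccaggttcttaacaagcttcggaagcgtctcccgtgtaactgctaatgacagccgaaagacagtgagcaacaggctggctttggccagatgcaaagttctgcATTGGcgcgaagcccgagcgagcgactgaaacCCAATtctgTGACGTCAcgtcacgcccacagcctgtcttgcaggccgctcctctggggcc
Mdh2: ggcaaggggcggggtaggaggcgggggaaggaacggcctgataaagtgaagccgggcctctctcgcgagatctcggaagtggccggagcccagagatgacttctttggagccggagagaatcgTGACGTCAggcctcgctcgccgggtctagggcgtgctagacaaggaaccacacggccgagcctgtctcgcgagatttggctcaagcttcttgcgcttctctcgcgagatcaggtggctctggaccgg
The TGACGTCA element lies at -51 from this Ogdh start, beside CCAAT boxes at -92 and -60, and at -127 in Mdh2. All motifs were searched on both strands, and AAGGTCA is contained in the longer TCAAGGTCA. TGACGTCA was in windows of 2 of the 8 genes and of 2% of all 27025 genes with a window. The CCAAT box (CCAAT) was in those of 5 of 8 (Cs, Idh2, Idh3b, Ogdh and Fh1) and of 41.1% of all genes. The nuclear receptor motif AAGGTCA was in 1 of 8 (a later start of Ogdh; 5.4% of all genes), and an E2F motif (TTTCCCGC, TTTCGCGC, TTTGCCGC or TTTGGCGC) in 1 of 8 (Dlst; 2.6%). The longer TCAAGGTCA and the NRF1 motif were in none of the 8, beside 0.5% and 5.2% of all genes.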

How the data were processed

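Per the file headers, all 16 scans came from a GenePix 4000B, and Agilent Feature Extraction 9.1.3.1 read 12 of them and 9.5.3.1 the 4 of MuRF1 het MuRF2 null hearts. Deposited scanner files give spot and background intensity in both colours, a log10 ratio that the authors' extraction had background corrected and dye normalised, and flags. In the deposited series matrix are log2 values: 99.6% of its values for probes passing the filter lay within 0.01 of the log10 ratio brought to log2 minus each probe's median over the arrays. The authors' reason for this centring is unknown. Per the labels, 50 ng of RNA was amplified, heart RNA was in Cy5 and the reference in Cy3, with no dye swap; the labelling protocol names only Cy3-CTP, and the channel entries were followed.

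Intensities were processed anew with limma 3.58.1 in R 4.3.3: normexp with an offset of 50, loess within each array, control and irregular spots at weight 0 and irregular values left out, duplicate spots averaged. Probes with Cy5 well above background on at least 4 of 16 arrays were kept, and a gene was its probe with the highest mean Cy5. Symbols were updated through the RefSeq gene list for GRCm38.p6 (22951 probes by accession, 6659 by symbol, 3109 by synonym; 8455 kept the file's name). The 6 comparisons were fitted with lmFit and eBayes over all 16 arrays, two-sided. Between groups ± is the standard error. The number of arrays limits the precision. The fit was tested on simulated data. The labels call the replicates biological.

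The members, the pathway and marker lists and the motifs were chosen with earlier results of these data known, and support nothing independently. All 9 members are named. From each pathway list, at most 4 genes that passed in a comparison were taken by smallest p (some are not reported here), and others named there (Sdhc, Sdhd, Idh1, Mdh1 and Pdk4 in double null hearts, and the markers) were chosen after their values were seen. The most alike genes are the 5 with the highest correlation, without clones, predicted genes and pseudogenes.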

Additional observations from a re-analysis of the deposited data

Results flagged for a closer look

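In MuRF1 null MuRF2 het 3 the log2 ratio of Cs was 1.06, apart from the 0.76 to 0.79 of the 3 other hearts of its group: its gap to the nearest of them was 0.905 of the whole range. Groups of 4 arrays were looked at for 35 combinations of gene and genotype, and this was the 1 that stood apart. Chance alone marks about 1 in 20 such groups.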

How the results depend on the processing

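In double null against wild type hearts the 9 differences kept their direction under every alternative, single arrays left out included. In parentheses is the share of all genes that passed in the same setting. Of 9, 8 passed as reported (22.3%), 5 with arrays scaled to one spread (21.6%) and 5 with array brightness as a covariate (14.8%). Within slide 1 alone 0 passed (4 arrays, 0%), and with single arrays left out 7 to 9 did (12.6% to 29.9%). Brightness moves with genotype, and the cause of the lower counts was not tested. Median centring without loess moved the median of all genes by -0.49, -0.51 and -0.34 in the 3 comparisons against wild type, and left the 9 genes' medians 1.53, 1.01 and 0.41 below it.

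In MuRF1 null MuRF2 het against wild type hearts the count of 0 became 9 with median centring (59.8%) and 1 with array weights (18.1%). It stayed at 0 with single arrays left out (0.187% to 12.2%). In MuRF1 het MuRF2 null against wild type it became 2 with Cy5 alone (5.13%), 4 with array weights (24.9%), 1 with brightness as a covariate (12.2%) and 3 with only the 2 groups fitted (16.8%). In double null against MuRF1 het MuRF2 null the 4 became 0 with median centring (7.06%), 7 with Cy5 alone (29.4%) and 9 with array weights (66.1%). With single arrays left out the count was 3 to 6 (17.7% to 32%). In double null against MuRF1 null MuRF2 het the 1 became 0 with loess replaced by a median, the Feature Extraction ratio and the series matrix (0% to 0.706%). It was also 0 with no filter (0.0506%) and with only the 2 groups fitted (0%). The count was 2 with Cy5 alone (2.76%), 9 with array weights (23.1%), 5 with brightness as a covariate (2.51%) and 5 without the 2 dimmest arrays (3.9%). With single arrays left out it was 0 to 4 (0.0243% to 2.92%). Between the groups with 1 functional allele the 0 became 3 with Cy5 alone (14.6%), 4 with array weights (25.6%) and 0 to 1 with single arrays left out (1.65% to 17%).

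Whether replicate numbers pair the samples was not settled. Deviations of same-numbered arrays correlated from -0.61 to 0.36, and differently numbered arrays were not compared. With the replicate number as a block, double null against MuRF1 null MuRF2 het went from 1 to 0 (0.13%) and the groups with 1 functional allele from 0 to 1 (6.36%), and the other 4 counts stayed within 1.5 times.

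All reversals were of differences that had not passed as reported, and the cause was not tested. In MuRF1 het MuRF2 null against wild type, Cs turned to 0.073 with Cy5 alone and 0.0022 with scaling (-0.10 to 0.034 with single arrays left out). Dlst turned to -0.44 with median centring, -0.057 with Cy5 alone and -0.14 with the mean of its probes. Idh3a turned to 0.081 with either the Feature Extraction ratio or the series matrix and 0.26 with Cy5 alone, Idh3b to 0.33 and Ogdh to 0.13 with Cy5 alone. In MuRF1 null MuRF2 het against wild type, Fh1 turned to 0.15 with scaling (-0.064 to 0.0019 with single arrays left out). Idh2 turned to 0.066 and Ogdh to 0.17 with brightness as a covariate. Idh3b turned to 0.14 with scaling, 0.054 with array weights, 0.094 with brightness and 0.028 without the 2 dimmest arrays (-0.13 to 0.028 with single arrays left out). Idh3a turned to -1.27 with median centring and -0.0044 under the Feature Extraction ratio or the series matrix (-0.17 to 0.13 with single arrays left out). Suclg1 turned to -1.51 with median centring, -0.0705 with the Feature Extraction ratio or the series matrix, -0.13 with Cy5 alone and -0.032 with brightness (-0.070 to 0.11 with single arrays left out).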
